A study of Rattus norvegicus with 24 samples.

Results

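The AP-1 transcription factor family was examined in the frontal cortex of rats that inhaled tungsten particles. Its members here are 6 genes, Fos, Fosb and Fosl2 of the Fos subfamily and Jun, Junb and Jund of the Jun subfamily, out of 32883 reference genes in the tables. They were found by gene name among the reference identifiers, and the coverage of each was summed per gene and divided by the sum of its library. The family was proposed after the group levels of these same rats had been seen, so the levels and differences between Control, Low and High describe the members and carry no test. All 6 members passed the filter on low values, as did 15644 genes in all.

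The animals were 24 adult male Sprague-Dawley rats, 8 to a group, and cortical RNA was taken for sequencing 24 h after exposure. The labels give all 24 rats the same inhalation exposure and separate them by aerosol concentration, which was 0 mg/m3 in Control, 5 mg/m3 in Low and 80 mg/m3 in High. All sample titles also hold the word Repeat, which the sources used here do not explain. The rats carry the numbers 49 to 56 (Control), 57 to 64 (Low) and 65 to 72 (High). Each number names 1 sample, and p-values measure the spread between these samples.

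AP-1 is a dimer of basic leucine zipper proteins. Jun proteins pair with one another or with a Fos protein, while Fos proteins need a Jun partner, and the dimers bind the TPA response element (TRE) and the related cyclic AMP response element (CRE). Fos, Fosb and Junb are immediate early genes that neurons transcribe within minutes of activity without new protein synthesis, and their RNA is short-lived. Jun also responds to stress kinases, whereas Jund is transcribed steadily in most cells.

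In the coordinates of the tables, the members lie on separate chromosomes except for Fos and Fosl2. Fos (ENSRNOG00000008015) spans chr6:109300433-109303299 on the plus strand and Fosl2 (ENSRNOG00000052357) spans chr6:25598936-25616995 on the minus strand. The other members are on minus strands, with Fosb (ENSRNOG00000046667) at chr1:80214494-80221710, Jun (ENSRNOG00000026293) at chr5:114011189-114014277, Junb (ENSRNOG00000042838) at chr19:26092974-26094756 and Jund (ENSRNOG00000019568) at chr16:20485029-20486707. The tables give the start and end of a gene without its exons. Fos, Jun, Junb and Jund are compact, at 1679 to 3089 bases, while Fosb spans 7217 and Fosl2 18060 bases.

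Promoter windows of RefSeq, on the build GRCr8, run from 250 bases before the start of a gene to 50 after it. Of the members, Fosb, Fosl2, Junb and Jund matched, and Fos and Jun did not. GRCr8 positions are not those of the tables. Windows are shown for Junb, whose level differed most between groups, for Jund, the most abundant and steadiest member, and for Fosl2, the only member lower in Low than in Control. Capitals mark matches, on either strand, to the CRE (TGACGTCA), the CRE core (TGACG, also inside the CRE) and the TATA box (TATAAA).
Junb, GRCr8 chr19:40080876-40081175, plus strand: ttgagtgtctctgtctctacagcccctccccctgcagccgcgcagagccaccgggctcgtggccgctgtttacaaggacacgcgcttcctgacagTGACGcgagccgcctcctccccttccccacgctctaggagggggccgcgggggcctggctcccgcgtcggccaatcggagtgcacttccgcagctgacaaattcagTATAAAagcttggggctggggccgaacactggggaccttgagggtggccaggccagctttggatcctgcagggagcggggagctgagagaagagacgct
Jund, GRCr8 chr16:18769722-18770021, minus strand: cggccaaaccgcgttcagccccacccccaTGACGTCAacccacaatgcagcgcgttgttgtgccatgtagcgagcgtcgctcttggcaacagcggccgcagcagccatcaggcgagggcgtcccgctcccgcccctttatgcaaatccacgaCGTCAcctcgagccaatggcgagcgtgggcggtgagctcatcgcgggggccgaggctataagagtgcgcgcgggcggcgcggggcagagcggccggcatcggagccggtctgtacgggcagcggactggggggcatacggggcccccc
Fosl2, GRCr8 chr6:30039220-30039519, minus strand: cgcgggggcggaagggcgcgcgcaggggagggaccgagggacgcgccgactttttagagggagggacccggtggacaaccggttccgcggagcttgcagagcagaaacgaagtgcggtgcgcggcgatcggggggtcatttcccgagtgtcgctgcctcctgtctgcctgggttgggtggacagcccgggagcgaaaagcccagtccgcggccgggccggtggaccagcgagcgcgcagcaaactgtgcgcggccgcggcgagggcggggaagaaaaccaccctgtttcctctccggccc

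The Jund window held a full CRE at -221, with cores inside it at -221 and -218, and a further core at -98, counted from the start of the gene. Junb held a CRE core at -155 and a TATA box at -49. In the Fosb window the only match was a TATA box on the reverse strand at -180, and the Fosl2 window held no match. No TRE (TGACTCA or TGAGTCA) and no CArG box, the site of serum response factor, was found in any of these windows. Of 33469 promoter windows of this length, 1.83% hold a CRE, 21.2% a CRE core, 14.2% a TATA box, 4.63% a TRE and 1.64% a CArG box. A match describes letters and is not a measured binding site.

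Some libraries and tables stand apart, and values with and without them are given below. Control 56 and Low 57 to 62 had 5449 to 8102 of minus-strand mitochondrial tRNA in scaled coverage, against 84.9 to 154.6 in the other 17 libraries. In Control 49 and Low 57, the genes with the longest spans (3129 of 15644) differed from the group by -0.57 and -0.37 on the log2 scale, against -0.21 to 0.18 for the other 22 rats. Control and High tables list 46334 to 159573 loci assembled from the reads beside the reference genes, and Low tables list 0, so that a difference of Low from both other groups and the kind of table cannot be told apart. The share of coverage on mitochondrial genes was 21.8% to 33.8%, and counting error is not known because the tables hold no read counts. Cortical neuron, astrocyte, oligodendrocyte and microglia markers were present in every group. Endothelial and mural markers were present as well, with sums of 98.4 to 189.6 (Control), 114.5 to 169.5 (Low) and 96.5 to 188.9 (High). Of these, Cldn5 was nearly absent, listed at 0 in 6 of 8 Control, 8 of 8 Low and 5 of 8 High rats and at most 0.128 in the others.

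Levels below are scaled coverage, the mean read depth per base of a gene per 1000000 of summed depth over all reference genes, which is per length and can be compared between genes. Jund was the most abundant member, with medians of 138 (Control), 150.0 (Low) and 130.1 (High). Junb, Jun and Fos followed, and Fosb and Fosl2 were lowest. Within single rats, Jund was above Junb in 23 of 24, Junb above Jun in 21, Jun above Fos in 18 and Fos above Fosb in all 24. Fosb and Fosl2 had no fixed order, with Fosb higher in 4 of 8 Control, 8 of 8 Low and 4 of 8 High rats. Jun and Fos were likewise not separated in Low, where Jun was higher in 4 of 8 rats. Fosl1, the remaining Fos relative, overlapped between groups, with medians of 4.35 (Control), 5.26 (Low) and 4.07 (High).

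**Figure D1:**
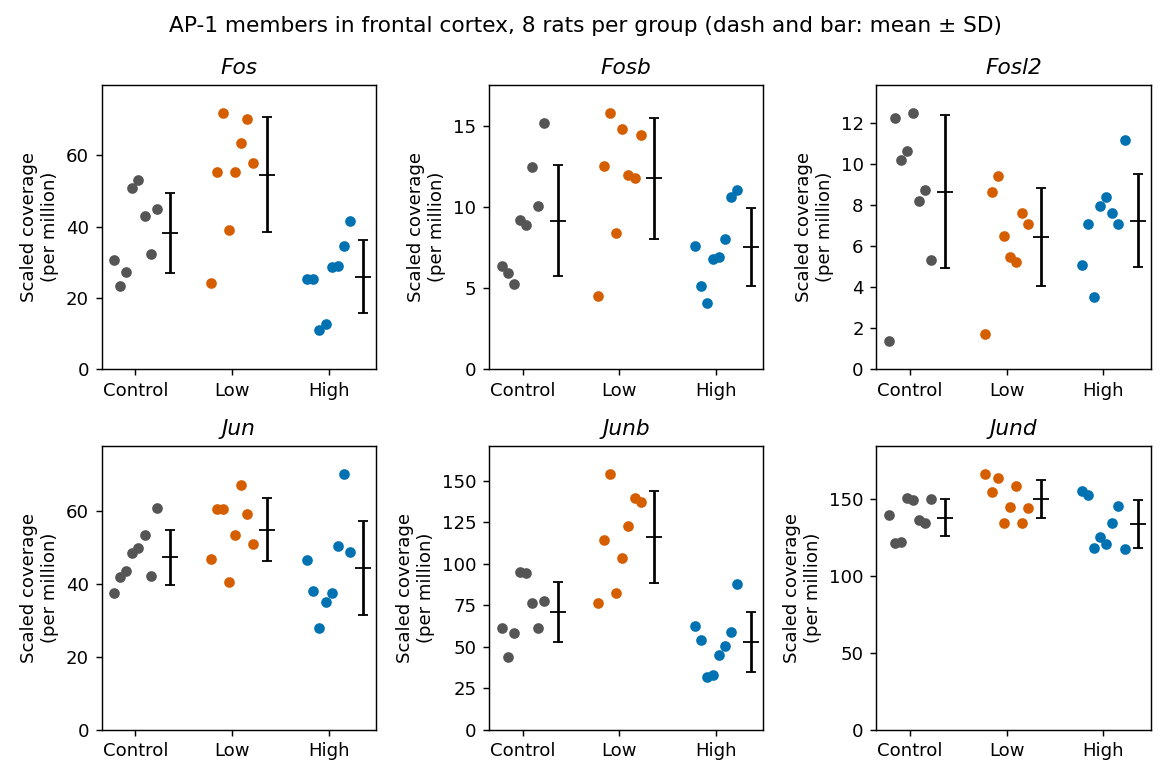
Scaled coverage (y axis, per 1000000, from 0) of the 6 members in each of 24 rats, 1 panel per gene, with points for rats in number order and a dash and bar for mean ± SD of 8 rats. Most Low rats lie high in Fos and Junb, where the medians were 56.5 and 119, while Jund varied little, from 118 to 166 over all rats.

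Fos encodes the c-Fos protein, the standard marker of recent neuronal activity. Its scaled coverage ran from 23.2 to 53.0 with a median of 37.5 in Control, from 24.1 to 71.8 with a median of 56.5 in Low and from 11.0 to 41.5 with a median of 27.0 in High. The groups overlapped, but 6 of 8 Low rats were above every Control rat and every High rat, and 2 High rats, 67 and 68, were below every Control rat. On the scale of log2(scaled coverage + 1), Fos was 0.49 higher in Low than in Control (standard error 0.25), 0.59 lower in High than in Control and 1.09 higher in Low than in High. These differences share a standard error because all 24 rats entered 1 fit.

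Fosb encodes another Fos protein, together with the long-lived splice form that builds up with repeated stimulation. It ranged from 5.22 to 15.2 (median 9.03) in Control, from 4.52 to 15.8 (median 12.3) in Low and from 4.04 to 11.1 (median 7.26) in High. Low 57 was the lowest Low rat and lay below every Control rat, whereas 6 Low rats lay above every High rat. The log2 difference was 0.33 (standard error 0.23) for Low against Control, -0.24 for High against Control and 0.57 for Low against High. The tables do not separate the splice forms.

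Fosl2 encodes Fra-2, a Fos protein without the transactivation domain of c-Fos. Fosl2 was the only member lower in Low than in Control. Its scaled coverage ran from 1.39 to 12.5 (median 9.48) in Control, from 1.70 to 9.43 (median 6.78) in Low and from 3.53 to 11.2 (median 7.35) in High, with log2 differences of -0.31, -0.12 and -0.18 in the same order of comparisons (standard error 0.30). Its lowest values belong to Control 49 and Low 57, the rats in which long genes were low, and the part of this in the result was not tested. Without these 2 rats, an alternative chosen after seeing the data, the differences are -0.38, -0.39 and 0.01. Without libraries 56 to 62 they are -0.12, -0.19 and 0.07.

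Junb encodes a Jun protein that pairs with c-Fos and is induced with it. It had the widest separation of any member. Junb ranged from 43.9 to 95.2 (median 69.1) in Control, from 76.2 to 154 (median 119) in Low and from 31.5 to 87.6 (median 52.2) in High. All 8 Low rats were above the Control median and the High median, 6 of them were above every Control rat, and High 67 and 68 were again below every Control rat. The groups still overlapped, since Low 57 and 60, at 76.2 and 82.3, lay inside the Control range. Junb was 0.71 higher in Low than in Control (standard error 0.19), 0.45 lower in High than in Control and 1.15 higher in Low than in High, a ratio of medians of 2.27 for the last.

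Jun encodes c-Jun, the partner of Fos proteins with the strongest activation domain. Its medians were 46.1 in Control (37.5 to 60.7), 56.3 in Low (40.4 to 67.1) and 42.3 in High (27.8 to 70.1). High held both the lowest and the highest rat, 67 and 71, so its spread was the largest. Differences were small, at 0.21 for Low against Control, -0.12 for High against Control and 0.33 for Low against High (standard error 0.14).

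Jund encodes the Jun protein that is present before stimulation. Control rats lay between 122 and 151, Low rats between 134 and 166 and High rats between 118 and 156, and its log2 differences were 0.12, -0.05 and 0.17 (standard error 0.07). A fold of 1.09 for Low against Control set it apart from Junb, with 1.63. High held the lowest Jund rat, 72, which was at the same time the highest High rat in Fos, Fosb, Fosl2 and Junb.

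**Figure D2:**
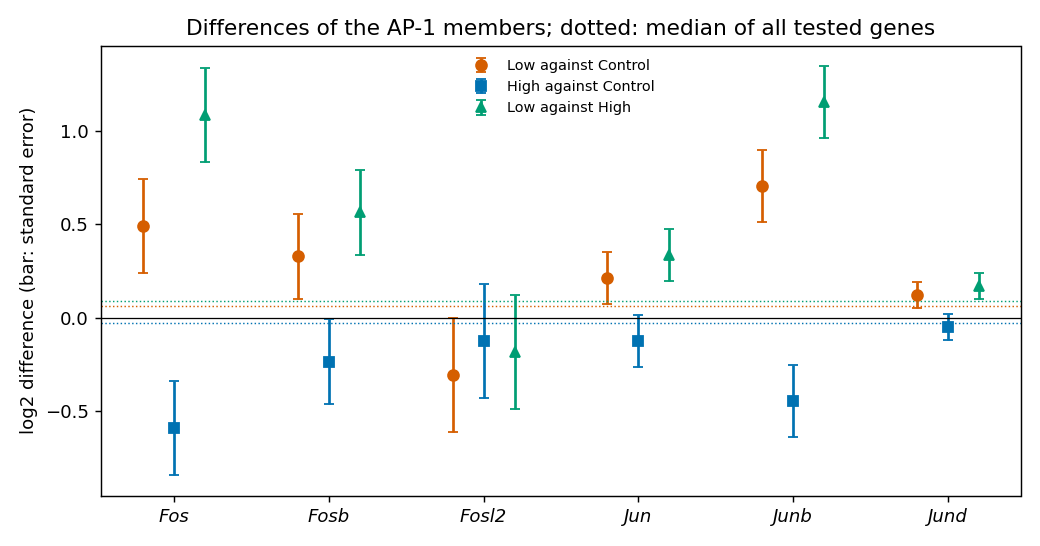
Log2 difference (y axis, bars are standard errors) of each member for Low against Control, High against Control and Low against High, from 1 fit to 24 rats. Fos and Junb have the largest differences, up to 1.15 for Junb in Low against High, Fosl2 is the only member below 0 in Low against Control, and dotted lines at 0.06, -0.03 and 0.09 mark the median of all tested genes.

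Over the 6 members, the median log2 difference was 0.27 in Low against Control, beside 0.06 over all tested genes, with 5 members higher and 1 lower. In High against Control it was -0.18 beside -0.03, with all 6 lower, and in Low against High 0.45 beside 0.09, with 5 higher and 1 lower. At an adjusted p under 0.05 in limma, 1 of 6 members was called in Low against Control (Junb), where 6.11% of all tested genes were called (1.23% higher and 4.88% lower in Low). In High against Control 0 members were called, where the background was 0% as well, and 330 genes had an unadjusted p under 0.05. Exact Wilcoxon rank-sum tests also called 0 genes in that comparison (887 unadjusted), and of the members they called 0 in Low against Control and 1, Junb, in Low against High. Over all tested genes they called 370 and 1133 in these 2 comparisons. In Low against High 2 of 6 were called (Fos and Junb), where 11.7% of tested genes were called (5.3% higher and 6.39% lower in Low). Without libraries 56 to 62 the medians of the members were 0.46, -0.16 and 0.56, and without Control 49 and Low 57 they were 0.32, -0.34 and 0.55. Without scaling, the medians of the members were 0.24, -0.01 (3 higher, 3 lower) and 0.26, beside 0.03, 0.14 and -0.12 over all genes, and Jund turned to 0.13 in High against Control and to -0.05 in Low against High. The counts of called members describe them and support nothing, because the members were proposed with these comparisons known.

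Leaving out 1 rat at a time moved the Low against Control difference of Junb between 0.62 and 0.79. It was not called without any one of Control 49 (0.68), Control 50 (0.62), Control 51 (0.67), Control 55 (0.68), Low 59 (0.64) or Low 62 (0.69). In Low against High, Fos and Junb were called in all 24 such fits, Fosb also without Low 57 (0.73) and Jun also without High 71 (0.43).

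Libraries 56 to 62 hold 6 of the 8 Low rats and 1 Control rat. Low 63 and 64, the Low rats outside them, had Junb at 139.6 and 137, above the highest of Control 49 to 55 at 95.2, and Fos at 70.3 and 57.9, above the highest of those Control rats at 53.0. Low 57 to 62 had a median of 109 for Junb and 55.2 for Fos. Without libraries 56 to 62 the Low against Control difference was 1.02 for Junb and 0.82 for Fos, and Low against High was 1.44 and 1.38, with 1 of 6 members, Junb, called in the latter and 0 in the former. Over all 15669 genes tested there, 354 were called in Low against High and 344 in Low against Control. The Jund difference shrank, to 0.04 for Low against Control and 0.07 for Low against High.

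Ratios inside 1 library do not depend on how libraries are scaled. Fos stood at 26.9% of Jund in Control (median, range 19.1% to 35.5%), 39.0% in Low (14.5% to 52.2%) and 19.0% in High (9.28% to 35.3%). Junb stood at 49.6% of Jund in Control (36.1% to 63.1%), 75.6% in Low (45.8% to 104%) and 37.3% in High (26.3% to 74.5%). Low 63 was the 1 rat in which Junb exceeded Jund. The share of Jund in the summed coverage of the family had medians of 44.1% (Control), 37.6% (Low) and 50.2% (High). Fos relative to Junb moved less, at 53.1%, 47.9% and 47.1% in the same order. In bulk tissue, fewer cells that express a gene and less RNA per cell cannot be told apart.

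The members also differed in how much they varied among rats of 1 group. The coefficient of variation of Jund was 8.50% in Control, 8.30% in Low and 11.7% in High, below the medians of all tested genes, which were 16.9%, 15.5% and 14.4%. That of Fos was 29.5%, 29.4% and 39.4%, and that of Junb 25.4%, 23.8% and 33.9%, above those medians in every group. Fosb and Fosl2, at lower levels, had 31.3% to 43.2%. Jun was near the median of all genes in Control and Low, at 15.8% in both, and reached 29.2% in High.

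Variation among rats of 1 group is separate from the differences the family was chosen on, and it was tested for the 15 pairs of members in each of the 3 groups. Pearson's r of log2(scaled coverage + 1) was positive for 38 of 45 pairs. Neither this share nor the share past a threshold was computed over all pairs of tested genes, so these counts only describe the members. With group means subtracted, over all 24 rats, Jund (r = 0.28) ranked 5378 among tested genes for Fos, and Junb (0.92) ranked 1. With exact permutation tests over all 40320 pairings of 8 rats (two-sided, Benjamini-Hochberg adjusted over 45 pairs), 6 pairs had an adjusted p under 0.05 and 17 an unadjusted one. Fos and Junb were the only pair among these in every group. In Control, r was 0.980 (exact permutation test, p = 0.000124, adjusted p = 0.00558, n = 8) and rho was 0.952 (adjusted p = 0.0171). In Low, r was 0.917 (exact permutation test, p = 0.000471, adjusted p = 0.0106, n = 8) with a rho of 0.976 (adjusted p = 0.0171). In High, r was 0.902 (exact permutation test, p = 0.00335, adjusted p = 0.0350, n = 8), with a rho of 0.690 that missed the threshold (adjusted p = 0.223).

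The relation of Fos and Junb did not rest on 1 rat. Leaving out each rat in turn gave r of 0.974 to 0.989 (Control), 0.907 to 0.938 (Low) and 0.857 to 0.944 (High), and without the 2 rats farthest from the Fos median r was 0.970, 0.821 and 0.687. Within Control 49 to 55 it was 0.984 (exact permutation test, p = 0.000794, adjusted p over 30 pairs 0.0238, n = 7). Within Low 57 to 62 it was 0.921 (exact permutation test, p = 0.00417, adjusted p = 0.0625, n = 6). High libraries all lie outside 56 to 62, and 2 Low rats outside it are too few for a value.

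The other 3 pairs were each past the threshold in 1 group. In Control, Jund followed Fos with r = 0.907 (exact permutation test, p = 0.00258, adjusted p = 0.0350, n = 8), a rho of 0.857 (adjusted p = 0.0804) and an r of 0.836 without the 2 farthest rats. It followed Junb with r = 0.881 (exact permutation test, p = 0.00389, adjusted p = 0.0350, n = 8), a rho of 0.952 (adjusted p = 0.0171) and an r of 0.771 without the 2 farthest. In Low the r of Jund was -0.21 with Fos and -0.00 with Junb, and in High 0.25 and 0.29, and the difference between groups was not tested. In High, Fosb and Jun had r = 0.866 (exact permutation test, p = 0.00618, adjusted p = 0.0463, n = 8), with a rho of 0.857 (adjusted p = 0.0804) and an r of 0.869 without the 2 farthest. Fosl2 was in none of the 6 pairs, and its r with the other members ranged from -0.38 to 0.84. With median-of-ratios scaling Fos and Junb in Low missed the threshold (r = 0.893, exact permutation test, adjusted p = 0.0714). The 6 pairs fell to 3 with rho and to 3 with median-of-ratios scaling, and to 2 without any one of Control 50, 51, 52, 53 or 56. In Control, Jund and Fos missed the threshold with rho, without scaling and with median-of-ratios scaling. Jund and Junb in Control missed it with median-of-ratios scaling. Without both Control 49 and Low 57 the same 6 pairs passed, with r of 0.981 and 0.933 for Fos and Junb in Control and Low.

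**Figure D3:**
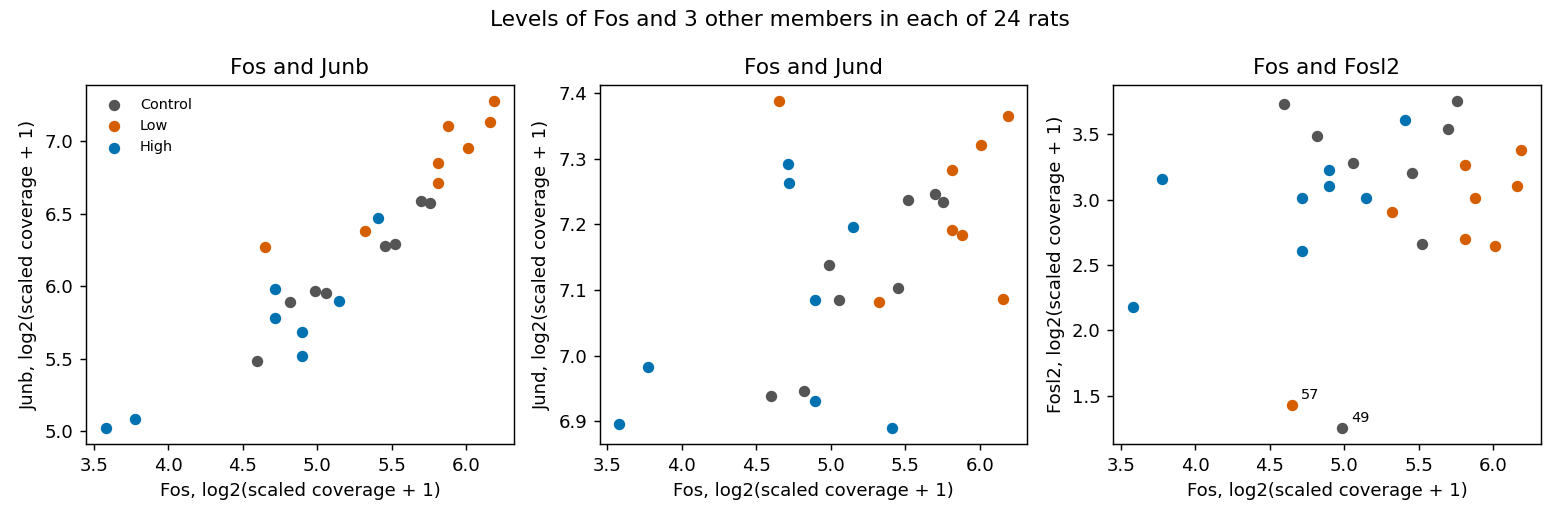
Each point is 1 of 24 rats, with Fos on the x axis and Junb, Jund or Fosl2 on the y axis, all as log2(scaled coverage + 1) on axes that do not start at 0. Fos and Junb rise together within each group (r = 0.980, 0.917 and 0.902), and rats 49 and 57 lie low in Fosl2. Jund rises with Fos in Control (0.907), a pair not past the threshold without scaling or with median-of-ratios scaling.

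The genes most like each member were ranked over 15644 tested genes by r across the 24 rats after the mean of each group was subtracted. For Fos the first gene was Junb itself (r = 0.923), and for Fosb, Fos had r = 0.788 and Jun 0.713. Outside the family, the 5 genes nearest to Fos were Nr4a1 (0.875), Csrnp1 (0.856), Dusp1 (0.815), Arc (0.813) and Npas4 (0.793). Nr4a1 is an immediate early nuclear receptor, Dusp1 a phosphatase of MAP kinases, Arc a synaptic protein made at active dendrites and Npas4 an activity-dependent transcription factor. Junb shared 4 of these, Nr4a1 (0.876), Arc (0.842), Csrnp1 (0.837) and Dusp1 (0.793), with Gadd45b (0.778) next. Jun was nearest to Dusp1 (0.890), Ier2 (0.874), Btg2 (0.856), Csrnp1 (0.842) and Apold1 (0.820), which are also known as early response genes. Fosb was nearest to Egr2 (0.742), Klf4 (0.728), Csrnp1 (0.720), Slc15a2 (0.718) and Rrm2 (0.718), and without Control 49 and Low 57 its r with Egr2 was 0.589 and with Rrm2 0.588.

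Jund and Fosl2 kept other company. The nearest to Jund were Commd9 (0.828), Dda1 (0.819), Tmed9 (0.813), Akirin2 (0.812) and Lyrm7 (0.801). Those nearest to Fosl2 were Arl5b, Unc13a, Cacna1i, Gramd1b and Clvs2, with r from 0.910 to 0.916. Without Control 49 and Low 57 these 5 values fell to between 0.677 and 0.713, so they rest largely on those rats. For Fos without the same rats, r with Nr4a1 was 0.860 and with Csrnp1 0.842. These correlations are descriptions over rats that share library effects, and no p is given.

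Neuronal activity induces many early genes besides AP-1. Of 30 such activity genes listed, 29 were tested, and their median difference was 0.38 in Low against Control (26 higher, 3 lower), -0.27 in High against Control (2 higher, 27 lower) and 0.66 in Low against High (28 higher, 1 lower). In limma, 1 was called in Low against Control, 0 in High against Control and 15 in Low against High, all higher in Low, beside the background shares given above. The called gene in Low against Control was Egr4, a zinc finger factor, at 19.2 to 38.0 (Control) and 33.7 to 53.1 (Low) (log2 difference 0.56, standard error 0.16, limma adjusted p = 0.0298). Among the 15 in Low against High, Npas4 had the largest difference (1.66, standard error 0.29, limma adjusted p = 0.000288), at 16.2 to 46.2 in Low and 2.84 to 13.5 in High. Arc followed with 1.64 (limma adjusted p = 0.000925), Egr2 with 1.42 (0.00438), Dusp1 with 1.11 (0.0181) and Nr4a1 with 1.03 (0.00945). Without libraries 56 to 62, 4 of these 15 were called (Npas4, Arc, Egr2 and Gadd45b), and Npas4 and Arc stood at 2.28 and 2.27. With those libraries as a covariate 6 were called (354 of 15644 genes), without scaling 5 (1370 of 17154) and with no filter 10 (1463 of 32883). Without scaling, High against Control had 10 higher and 20 lower, with a median of -0.08. Leaving out 1 rat gave 10 to 18 called genes, with 10 without each of Low 59, Low 62 and High 67. Egr4 in Low against Control was not called without libraries 56 to 62 (0.70), with them as a covariate (0.65), without scaling (0.54), with median-of-ratios scaling (0.51), with no filter, or without any one of Control 50, 51 and 55 or Low 58, 59 and 62. This list was written with the earlier results known and is not independent evidence of a direction.

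Of 12 listed relatives and dimer partners of AP-1, 9 were tested, with medians of 0.17 in Low against Control (7 higher, 2 lower), -0.06 in High against Control (2 higher, 7 lower) and 0.15 in Low against High (8 higher, 1 lower). The 1 gene called of these 9, beside 11.7% of all tested genes in Low against High, was Mafg. This small Maf protein, which pairs with bZIP partners, was at 0.20 in that comparison (standard error 0.06, limma adjusted p = 0.0279). It was not called without libraries 56 to 62 (0.21) and was -0.02 without scaling, where the medians of the list were 0.12 in High against Control and -0.03 in Low against High. Atf2, a partner of Jun, had medians of 71.6 (Control), 75.7 (Low) and 59.6 (High), and Jdp2, a repressor of AP-1, 73.6, 69.9 and 64.3. Maff was 0.31 higher in High than in Control (standard error 0.15), the largest such value of the list, and not called. Its means of 0.98 (Control), 1.30 (Low) and 1.44 (High) lie near the floor of the filter, which it passed through Low and High.

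All 28 listed kinases and factors upstream of AP-1 were tested. Their medians were 0.08 in Low against Control (20 higher, 8 lower), -0.07 in High against Control (6 higher, 22 lower) and 0.10 in Low against High (23 higher, 5 lower). These directions depended on the scaling, since without scaling the list had 23 higher and 5 lower in High against Control (0.12) and 6 higher and 22 lower in Low against High (-0.12), and median-of-ratios scaling gave 14 higher and 14 lower in the latter. Without Control 49, Low against Control had 13 higher and 15 lower (-0.00). With all 24 rats, 1 of the 28 was called in Low against Control, where 6.11% of all tested genes were called. In Low against High 1 was called higher and 1 lower in Low, beside 5.3% and 6.39% of all tested genes. Crem, a factor of the CREB family whose short form represses cyclic AMP response genes, was called in both comparisons of Low. Control rats had 1.18 to 1.86, Low rats 0.418 to 0.689 and High rats 1.17 to 1.61 (log2 difference -0.69 against Control, limma adjusted p = 5.65e-07). Crem lay at the floor of the filter, a mean of 1. It passed through Control (mean 1.52) and High (1.37), with a Low mean of 0.56, so its call only describes values near that floor. The direction turned with the other deposited columns, to 1.10 with FPKM and 1.02 with TPM, and in Low against High to 1.13 and 1.05. It was called in all 24 fits that left out 1 rat. Crebbp, a coactivator of CREB and AP-1, was 0.33 higher in Low than in High (standard error 0.10, limma adjusted p = 0.0378). It was not called without libraries 56 to 62 (0.37) or without scaling (0.12), and was called in 12 of 24 fits that left out 1 rat. Elk4 and Creb1, factors that act on the Fos promoter, had log2 differences of -0.71 (standard error 0.31) in Low and -0.26 (standard error 0.29) in High against Control and were not called.

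Of 20 listed genes described as AP-1 targets, 14 were tested, with medians of -0.05 in Low against Control (6 higher, 8 lower), -0.12 in High against Control (2 higher, 12 lower) and 0.06 in Low against High (10 higher, 4 lower). Without scaling, 16 were tested, with 9 higher and 7 lower in High against Control (0.03) and 3 higher and 13 lower in Low against High (-0.15). In Low against High the direction was also lost without libraries 56 to 62 (6 higher, 8 lower, -0.04), with them as a covariate (6 higher, 8 lower, -0.09), with median-of-ratios scaling (7 higher, 7 lower, -0.02) and with no filter (10 of 20 higher, -0.01). Without any one of Low 59 (0.03), Low 60 (0.04) or High 72 (-0.00), 7 were higher and 7 lower. Without any one of Low 61, Low 62 or High 70, 8 were higher and 6 lower. Gria2, an AMPA receptor subunit, was the only one called, 0.24 higher in Low than in High (standard error 0.07, limma adjusted p = 0.0249). It was not called without libraries 56 to 62 (0.16), without scaling (0.02) or with median-of-ratios scaling (0.15). Penk, the enkephalin precursor, was not called and spread widely, over 88.2 to 235 (Control), 51.8 to 161 (Low) and 33.1 to 407 (High). Nts, the neurotensin precursor, ranged from 0.311 to 33.2 in High alone, and Hmox1, heme oxygenase, had medians of 6.13, 5.55 and 4.44 in Control, Low and High.

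Medians of the cell type marker lists are given beside those over all tested genes, 0.06 in Low and -0.03 in High against Control. They are given for the main scaling only. The 10 striatal neuron markers were lower in Low and in High than in Control, with medians of -0.52 and -0.28 and none called, and their summed level was 395 to 901 (Control), 279 to 674 (Low) and 212 to 1356 (High). All 6 tested choroid plexus and meninges markers were lower too (-0.41 and -0.27, none called), with sums of 64.5 to 120.1, 35.2 to 86.1 and 38.7 to 115.9. Excitatory cortical neuron markers were higher for 9 of 12 in Low against Control (median 0.13) and lower for 12 of 12 in High against Control (-0.17), with none called and sums of 862 to 1274, 768 to 1239 and 477 to 1185. Oligodendrocyte markers were higher for 7 of 7 in Low (0.10) and lower for 7 of 7 in High (-0.14), with none called. Inhibitory neuron (0.07 and 0.03), astrocyte (-0.01 and -0.10), microglia (0.09 and 0.04) and blood markers (-0.27 and -0.10) had these medians in Low and in High against Control, with none called. Of 5 endothelial and mural markers tested (-0.02 and -0.04), Pdgfrb was called lower in Low than in Control (-0.68) and than in High (-0.64), and Slco1a4 higher in Low than in High (0.33). In Low against High, beside 0.09 over all tested genes, excitatory cortical neuron markers had a median of 0.33 (11 of 12 higher). Oligodendrocyte markers had 0.22 (7 of 7 higher). Striatal neuron (-0.22, 10 of 10 lower), choroid plexus and meninges (-0.22, 6 of 6 lower) and blood markers (-0.19) were lower in Low. Inhibitory neuron (0.04), astrocyte (0.09), microglia (0.04) and endothelial and mural markers (0.02) lay nearer 0. The part of these lists in the differences of the members was not tested.

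In the 16 Control and High tables, each member is listed both as a reference gene and as an assembled locus on the same strand. For Jun and Junb both listings had the same start, end and coverage in 16 of 16 tables, within 0.5%, and for Jund in 15, with 0.333 of the reference coverage in the remaining table. Fos had equal coverage in 9, with assembled loci down to 0.601 of the reference, Fosb in 4 (0.618 to 1.15) and Fosl2 in 1 (0.810 to 2.62). Adding the assembled loci to the reference genes adds coverage in Control and High alone, which for Junb is the same coverage again. This addition turned Junb to -0.28 in Low against Control. Loci on the opposite strand overlapped Jund in 16 tables, Jun in 10 and Junb in 9, at up to 0.108, 0.402 and 0.0807 of the reference coverage, and Fos, Fosb and Fosl2 in 1 table each. In Control 56, Fosl2 had 2.62 times as much in its assembled locus as in its reference listing, and in Control 49 it had 2.49 times.

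**Figure D4:**
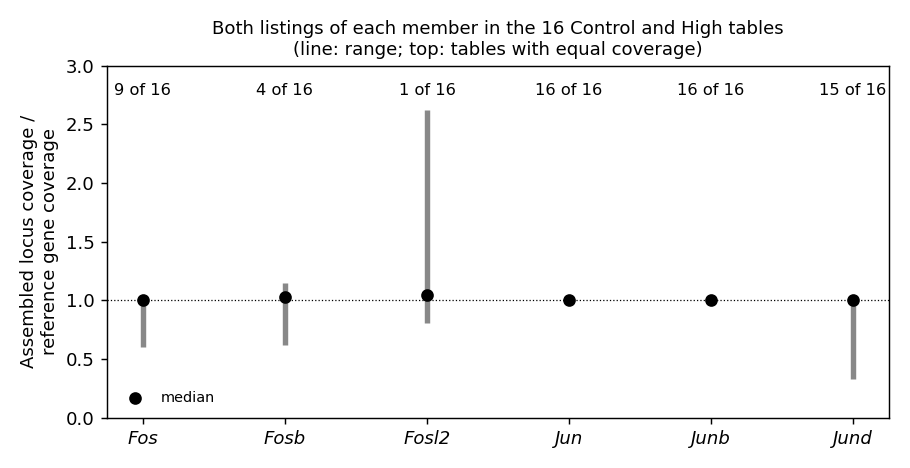
Ratio of the coverage of the assembled locus to that of the reference gene (y axis, from 0) for each member in the 16 Control and High tables, with a line from the lowest to the highest table and a dot at the median. Jun and Junb sit at 1 in all 16 tables, while Fosl2 reaches 2.62.

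The deposited columns did not treat all members alike. The ratio of FPKM to coverage, taken relative to its usual value in a library, was 1 within 0.5% in all 24 rats for Fosl2, Jun, Junb and Jund. For Fos it was above 1 in 3 Control rats and 4 High rats, up to 1.14, and in 0 Low rats, and for Fosb it was above 1 in 22 of 24 rats. With FPKM, the difference of Low against Control was 1.20 for Junb and 0.63 for Jund, beside a median of 0.53 over all genes tested on that column.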

How the data were processed

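RNA of frontal cortex was measured in 24 rats. The authors trimmed, aligned and assembled the reads; the submitters' processing notes name FastQC, Trimmomatic, TopHat2 and StringTie without versions. The deposited tables hold coverage, FPKM and TPM per gene. Coverage, a signal, is the mean read depth per base as the authors deposited it. The deposited FPKM values were used as an alternative, and so were the deposited TPM values, treated as a score because they sum to 1.70 to 1.98 times 1000000 in Control and High. The notes name the build mRatBN7.2 but the tables hold 28 scaffolds named AABR07, so positions are as the tables give them.

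Coverage was summed per gene (34 genes were listed more than once), divided by the sum over reference genes and scaled to 1000000. The 15644 genes whose mean reached 1 were tested on log2(value + 1) in 1 limma fit of all 24 rats (limma 3.58.1, R 4.3.3, trend and robust) with a Benjamini-Hochberg adjusted p under 0.05. Pairs of members were tested by exact permutation (scipy 1.17.1 with numpy 2.4.6 and pandas 2.3.3, Python 3.11.15), and figures were drawn with matplotlib 3.10.9. On simulated data for Low against Control, with 200 of 15644 genes changed by 1 on the log2 scale, 190 were recovered and 8 others called. The simulated noise was independent between genes and held no library effects, and only genes of higher level were changed. These rates therefore do not describe the real libraries. The members, the 4 related lists and the 9 marker lists were chosen with earlier results of these data known. Named genes were the 5 most like each member by r, those of the related lists past the threshold (up to 5), the 2 with the largest difference per dose, and Fosl1. Alternatives were other columns, scalings, filters, pseudocounts, samples and tests.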

Additional observations from a re-analysis of the deposited data

Results flagged for a closer look

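Junb as a percentage of Jund was 74.5% in High 72, against 26.3% to 40.3% in the other 7 High rats, a gap larger than expected for 8 values. Of 39 sets of 8 values looked at, 1 was found, and 1.95 would be found by chance.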

How the results depend on the processing

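No paired analysis was possible because each replicate number belongs to 1 rat. Genes called in Low against Control (956) were 556 with a minimum mean of 5, 12393 with FPKM, 3952 with TPM, 344 without libraries 56 to 62, 361 with them as a covariate, 535 with only the groups compared, 370 by exact Wilcoxon tests and 676 (without Low 62) to 1224 (without Control 56) with 1 rat left out. In Low against High (1828) they were 1192, 12410, 3927, 354, 354, 4514 without Control 49 and Low 57, 1133 by Wilcoxon and 1266 (without Low 62) to 2676 (without Control 49). In High against Control (0) they were 390 without Control 49 and Low 57, an alternative chosen after seeing the data. The higher and lower split in Low against High (829 and 999) was 108 and 1262 without scaling and 370 and 1286 with median-of-ratios scaling, and with FPKM in Low against Control 11948 and 445. The cause was not tested.

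Adding assembled loci, which only Control and High tables list, gave in Low against Control -0.34 for Fos, -0.51 for Fosb, -1.24 for Fosl2, -0.77 for Jun, -0.28 for Junb and -0.80 for Jund, and in Low against High 0.22, -0.31, -1.16, -0.65, 0.17 and -0.82. With FPKM, Jun, Junb and Jund were 0.70, 1.20 and 0.63 in Low against Control and 0.77, 1.58 and 0.63 in Low against High. Without scaling, Jund was 0.134 in High against Control and -0.047 in Low against High, and Mafg was -0.0172 in Low against High. Crem turned to 1.10 (FPKM) and 1.02 (TPM) in Low against Control and to 1.13 and 1.05 in Low against High. Correlated pairs (6) were 3 with rho, 12 without scaling, 3 with median-of-ratios scaling and 2 to 9 with 1 rat left out. Members called in Low against Control (1) were 0 with no filter, beside 824 of 32883 genes called. They were 0 without libraries 56 to 62 (344 of 15669 genes), with them as a covariate (361 of 15644) and by exact Wilcoxon tests (370). With FPKM 5 were called, beside 12393 of 13816 genes, and with TPM 2, beside 3952 of 15587. In Low against High (2) both columns called 5, beside 12410 of 13816 genes (FPKM) and 3927 of 15587 (TPM). Adding assembled loci called 3 in Low against Control, all lower in Low (Fosl2, Jun and Jund), beside 958 of 15644 genes. Fosl2 in Low against Control ran from -0.57 (without Control 49) to -0.11 (without Low 57), and in Low against High it turned to 0.01 without Low 57. Libraries 56 to 62 hold 6 of 8 Low rats, and Low tables alone list no assembled loci. Read counts were not used here, so counting error is unknown.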
